A study of Mus musculus with 9 samples.

Results

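The unfolded protein response and the integrated stress response were followed through 46 genes in dendritic cells that had been left untreated or exposed to an inhibitor of histone deacetylases. The genes are named textbook components of these pathways, found by gene symbol among probe sets that carry a single symbol, with the brightest probe set kept for each gene. Of the 46 genes, 45 were measured, among 12393 genes in all; Mbtps2 was not analysed here. They fall into 3 arms: 23 genes of the ATF4 arm, 12 genes of the XBP1 and ATF6 arm and 10 genes of endoplasmic reticulum (ER) degradation. Messenger RNA was measured on 9 Affymetrix arrays, 3 each for untreated cells, cells given trichostatin A (TSA) and cells given butyrate. The hydroxamate TSA and the short fatty acid butyrate both inhibit the zinc-dependent histone deacetylases. All groups share the same source: spleens of mice 6 to 8 weeks old bearing B.16 tumors (B16 is a mouse melanoma line) that express the cytokine Flt3L, which expands dendritic cells, followed by enrichment on magnetic CD11c beads. The mouse strain, the dose and length of treatment, and the origin of a group's arrays (separate mice, cultures or repeats) are unstated in the labels, so the p-values measure the spread between these arrays, which may be technical.

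The ER folds secreted and membrane proteins. When unfolded proteins build up there, 3 sensors in its membrane respond: PERK (gene Eif2ak3) phosphorylates the initiation factor eIF2alpha, IRE1 (Ern1) splices the Xbp1 messenger RNA, and ATF6 moves to the Golgi, where the proteases encoded by Mbtps1 and Mbtps2 release its active part. Phosphorylated eIF2alpha slows translation in general but favours translation of ATF4, and the kinases GCN2 (Eif2ak4) and PKR (Eif2ak2) reach the same step after amino acid shortage and double-stranded RNA. ATF4 raises genes of amino acid supply and, with CHOP (Ddit3), feedback genes, whereas XBP1 and ATF6 raise chaperones and the machinery that returns misfolded proteins to the cytosol for degradation. In dendritic cells the IRE1 and XBP1 branch is known for its part in the development and survival of some subsets. The arrays measured messenger RNA levels and did not measure phosphorylation, ATF6 cleavage or Xbp1 splicing.

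Some of the promoter letters through which these factors are known to act were read from RefSeq's windows of 250 bases before to 50 bases after the start site (build GRCm38.p6). Only the motifs named below were searched, so a gene without a match may carry another form of an element. Of the 45 genes, 39 had a window, and 9887 of the genes tested had a window. Each motif was searched on both strands. The core of the C/EBP-ATF response element, TGATGNAA, which ATF4 dimers bind, occurred in 5 of 39 members (Asns, Atf3, Chac1, Herpud1 and Trib3) and in 3.13% of genes with a window. The ER stress response element, CCAAT and CCACG with 9 bases between them, which ATF6 binds together with NF-Y, occurred in 4 of 39 (Creld2, Derl3, Pdia6 and Syvn1) and in 0.182% of genes. The XBP1 core TGACGTGG occurred in Vcp alone among the members and in 1.04% of genes, and the related TGACGTGA in 0 of 39 and 0.657% of genes. The cAMP response element TGACGTCA occurred in Ppp1r15a alone and in 2.99% of genes. The short CCACG, which is also the end of the ER stress response element, occurred in 28 of 39 and in 47.6% of genes. Several members are textbook bearers of these elements, so these counts are a description, and a match of letters is not a measured binding site.

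The matches that lie before the start site are printed, except that of Derl3 at position -156. Members that share the C/EBP-ATF core differed in how their RNA moved on the deposited scale. Atf3 and Herpud1 fell with both treatments, and Chac1 and Asns rose with butyrate. Of the carriers of the ER stress response element, Pdia6, Creld2 and Syvn1 were called higher with both on that scale. Derl3 carries it too and was not called with either treatment, but it was dim (mean 5.99 over the 9 arrays). Its 95% interval with butyrate, -0.11 to 0.40, holds the changes of Pdia6 (0.22) and Syvn1 (0.20), and Creld2 (0.42) lies just above it. With butyrate no difference of Derl3 from Pdia6 and Syvn1 is therefore shown. Each stretch runs 5′ to 3′ on the gene's strand, and the capitals mark the matched letters on either strand. The first group carries the C/EBP-ATF core, beginning at position -110 from the start site in Atf3, -193 in Chac1, -23 in Asns and -112 in Herpud1, and read on the opposite strand in all but Asns (Atf3 chr1:191183410-191183469, minus strand; Chac1 chr2:119351023-119351082, plus strand; Asns chr6:7693210-7693258, minus strand; Herpud1 chr8:94386291-94386350, plus strand).
Atf3: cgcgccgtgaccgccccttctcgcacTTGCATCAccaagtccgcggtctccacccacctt
Chac1: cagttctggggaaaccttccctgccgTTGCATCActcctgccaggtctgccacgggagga
Asns: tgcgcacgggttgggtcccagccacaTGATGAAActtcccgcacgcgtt
Herpud1: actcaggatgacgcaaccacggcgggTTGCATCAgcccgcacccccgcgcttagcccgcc
The next group carries the ER stress response element, at position -98 in Pdia6, -126 in Creld2 (opposite strand) and -44 in Syvn1 (Pdia6 chr12:17266465-17266535, plus strand; Creld2 chr15:88819494-88819564, plus strand; Syvn1 chr19:6046506-6046575, plus strand).
Pdia6: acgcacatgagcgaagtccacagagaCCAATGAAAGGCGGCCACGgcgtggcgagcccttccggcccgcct
Creld2: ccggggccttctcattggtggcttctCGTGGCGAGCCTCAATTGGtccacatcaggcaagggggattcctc
Syvn1: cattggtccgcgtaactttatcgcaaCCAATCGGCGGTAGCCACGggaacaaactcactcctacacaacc
The last pair carries the XBP1 core in Vcp, at position -114, and the cAMP response element in Ppp1r15a, at position -12 (Vcp chr4:43000588-43000647, minus strand; Ppp1r15a chr7:45526269-45526306, minus strand).
Vcp: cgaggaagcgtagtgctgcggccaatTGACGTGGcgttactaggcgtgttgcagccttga
Ppp1r15a: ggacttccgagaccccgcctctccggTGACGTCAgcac

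Levels are given as log2 of the normalised probe set intensity, as deposited; changes are differences of these, treated minus untreated, with the standard error of limma's fit. A gene was called higher or lower where limma's p-value, adjusted by the Benjamini-Hochberg method over all 12393 genes, was below 0.05. Both treatments moved a large part of the transcriptome, so the counts below are read against the share of all genes called. The members were brighter than the genes at large, with a median level of 8.90 against 7.12 over all genes tested. These shares therefore do not compare genes of like level. With TSA, 15 of 45 members were higher and 14 lower, beside 26.3% and 21% of all genes (47.3% in either direction). With butyrate, 20 of 45 were higher and 15 lower, beside 33.6% and 24.8% of all genes (58.4% in either direction). The median change of the members was -0.05 with TSA and 0.06 with butyrate, against 0.03 and 0.09 (log2) over all genes tested. Over the genes above the median level it was 0.064 with TSA and -0.004 with butyrate. Whether the members lie above or below other genes with butyrate thus depends on the level of the genes compared. At least 2-fold changes were rarer: with TSA, Psat1 and Eif2ak4 were higher and Atf5, Cebpb, Slc3a2 and Herpud1 lower by this measure, beside 2.14% and 3.28% of all genes. With butyrate, Eif2ak4 was higher and Slc3a2 lower by at least 2-fold, beside 2.74% and 4.6% of all genes. The arrays of treated and untreated cells did not overlap in 36 of 45 members with TSA and 35 with butyrate, beside 54.9% and 62.7% of all genes. The treatments were each set against the same 3 untreated arrays, so their changes are not independent of each other.

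**Figure D1:**
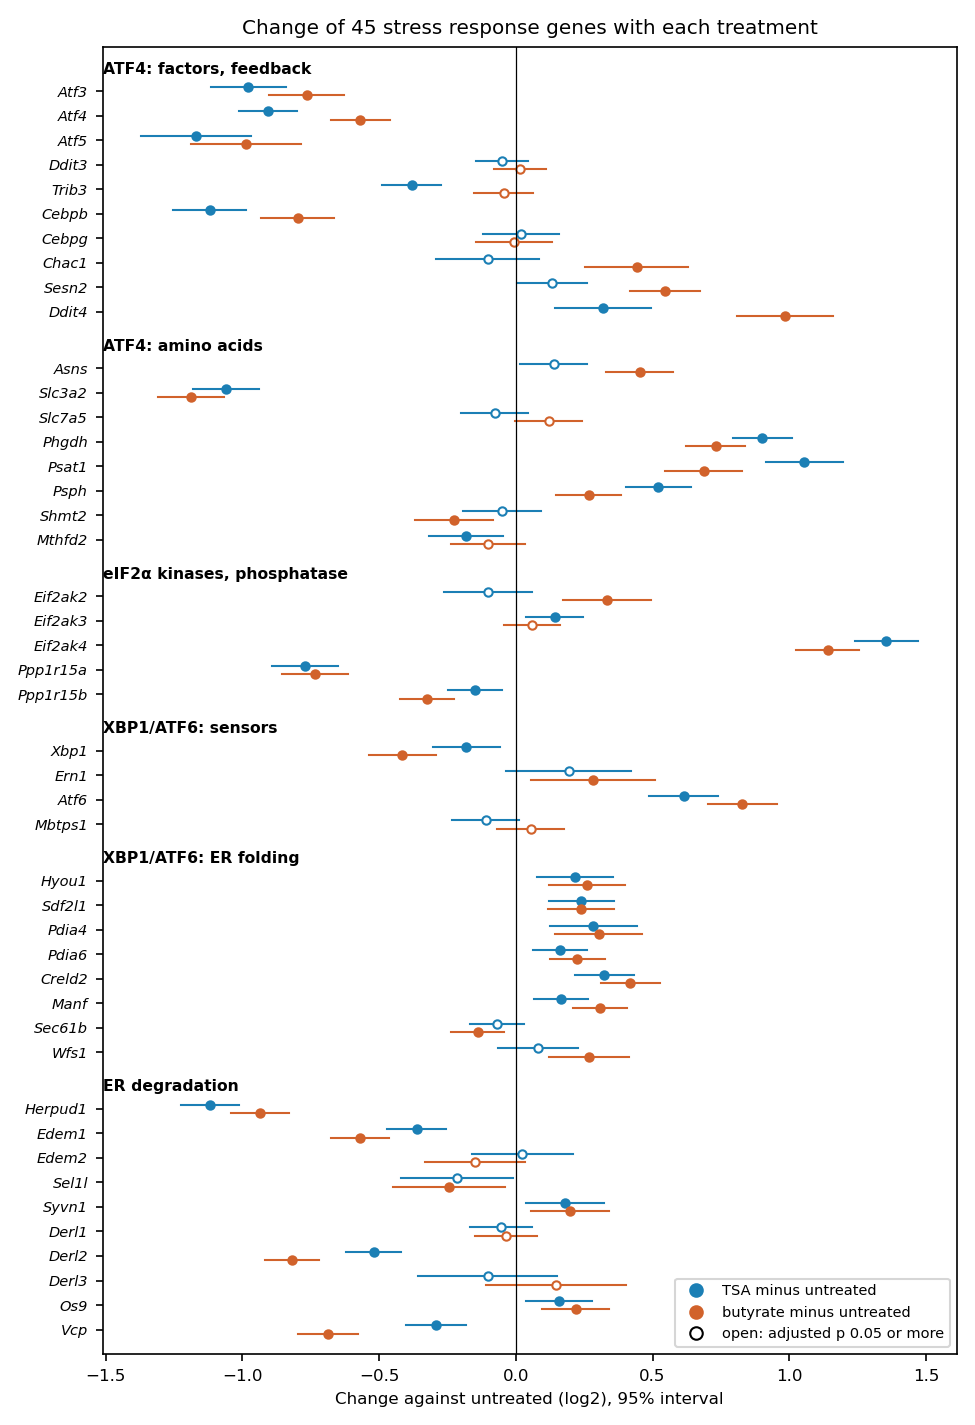
Log2 change against untreated cells of each of the 45 members, grouped by arm (x axis, with the 95% interval of limma's fit), for TSA in blue and butyrate in orange. Open circles did not pass the test. Eif2ak4 stands highest, at 1.36 with TSA and 1.14 with butyrate, and Slc3a2, Herpud1, Cebpb and Atf5 stand lowest with TSA, between -1.06 and -1.17.

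Several facts of the whole series bear on the values that follow. Arrays of a group correlated at 0.9971 to 0.9985 across genes in the 9 pairs. The hybridization spike-ins, bacterial transcripts added to every sample before hybridization, averaged 10.4 ± 0.075 (SD, n = 3) log2 units in untreated arrays, and stood 0.42 ± 0.057 (SE) higher in butyrate arrays and 0.01 ± 0.047 higher in TSA arrays. On a scale with equal hybridization spike-ins the median change of all genes with butyrate was -0.33, and on one with equal poly-A spike-ins it was -0.23, against 0.09 as deposited; with TSA it was 0.02 and 0.03 against 0.03. Member counts on the hybridization scale were 8 higher and 11 lower with TSA (beside 21.7% and 19% of all genes), and 5 higher and 26 lower with butyrate (beside 7.52% and 67.9% of all genes), so small rises with butyrate below are relative to the bulk of genes. The members called higher on that scale with TSA were Ddit4, Phgdh, Psat1, Psph, Eif2ak4, Atf6, Pdia4 and Creld2. Those called lower with TSA were Atf3, Atf4, Atf5, Trib3, Cebpb, Slc3a2, Ppp1r15a, Herpud1, Edem1, Derl2 and Vcp. Higher with butyrate were Ddit4, Phgdh, Psat1, Eif2ak4 and Atf6. Ddit3, Trib3, Cebpg, Slc7a5, Mthfd2, Eif2ak3, Mbtps1, Edem2, Derl1 and Derl3 were lower with butyrate there and not called as deposited. Syvn1 was lower with butyrate there and higher as deposited. On the poly-A scale, whose spike-ins varied more between arrays, the counts were 5 (Phgdh, Psat1, Psph, Eif2ak4 and Atf6) and 8 (Atf3, Atf4, Atf5, Cebpb, Slc3a2, Ppp1r15a, Herpud1 and Derl2) with TSA, beside 11.5% of all genes in each direction, and 3 (Ddit4, Eif2ak4 and Atf6) and 16 with butyrate, beside 5.58% and 28.5% of all genes. The Actb signal at the 3′ end exceeded that at the 5′ end by 0.43 ± 0.066 (SD, n = 3) in the untreated arrays, by 0.64 ± 0.042 in the TSA arrays and by 0.68 ± 0.040 in the butyrate arrays, a sign of RNA quality that moved with treatment. The dendritic cell markers averaged from 8.89 (Zbtb46) to 14.6 (H2-Aa) in untreated arrays, with Cd74 at 14.4 and Itgax at 9.24. The neutrophil markers S100a8 and S100a9 averaged 13.8 and 13.5 there. Of 11 measured dendritic cell markers 1 was higher and 6 lower with TSA, and 2 higher and 6 lower with butyrate. Of 9 plasma cell markers 0 were higher and 6 lower with TSA, and 2 higher and 4 lower with butyrate. Plasma cells are rich in XBP1 and in ER, and Xbp1 and Derl3 are on that list too. The mean of the 9 per array ranged from 7.96 to 8.00 in untreated, 7.46 to 7.56 in TSA and 7.54 to 7.60 in butyrate arrays. In untreated arrays these markers ran from 4.6 (Tnfrsf17) and 5.8 (Sdc1) to 11.58 (Xbp1). Prdm1, Jchain and Slamf7 stood at 9.31, 9.52 and 9.83. Of 9 macrophage and monocyte markers 0 were higher with either treatment, 9 were lower with TSA and 8 with butyrate; their mean per array ranged from 8.12 to 8.29, 7.32 to 7.41 and 7.29 to 7.46 in the 3 groups in that order. Of 9 neutrophil markers 0 were higher and 6 lower with TSA, and 3 higher and 5 lower with butyrate, with array means of 10.5 to 10.6, 9.85 to 9.94 and 10.1 in that order. Of 7 plasmacytoid dendritic cell markers 0 were higher with either and 6 and 7 lower with TSA and butyrate. No B or T cell marker was higher; of 9 each, 4 and 2 (B), and 4 and 1 (T), were lower. Of 7 NK cell markers 0 and 1 were higher and 3 and 2 lower, of 6 erythroid markers 0 and 1 higher and 5 and 4 lower, and of 8 melanoma markers, with array means of 5.29 to 5.48, 1 and 4 higher and 2 and 1 lower. At an unadjusted p under 0.05 in limma, 1 NK cell marker was higher with TSA, and the other counts of 0 among these markers stayed at 0. The part of RNA quality and of these cell types in the results was not tested. In RNA of a whole sample, fewer cells of a type and less RNA per cell cannot be told apart.

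The transcription factors Atf3, Atf4, Atf5 and Cebpb of the ATF4 arm fell with both treatments, while Ddit3 (CHOP) and Cebpg were not called. Of 10 factors and feedback genes, 5 were lower with TSA (Atf3, Atf4, Atf5, Cebpb and Trib3) and 1 higher (Ddit4). With butyrate 4 were lower (Atf3, Atf4, Atf5 and Cebpb) and 3 higher (Chac1, Sesn2 and Ddit4). The median change of the 10 genes was -0.24 with TSA and -0.03 with butyrate. Atf3, Atf4, Atf5 and Cebpb were also called lower with both treatments on both spike-in scales.

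Atf4, the factor whose translation rises when eIF2alpha is phosphorylated, was at 11.40, 11.43 and 11.41 in the untreated arrays, 10.56, 10.51 and 10.46 in the TSA arrays and 10.89, 10.85 and 10.80 in the butyrate arrays. All treated arrays lay below all untreated arrays, and the TSA arrays lay below the butyrate arrays. Atf4 fell 1.87-fold with TSA (-0.91 ± 0.048, adjusted p = 1.46e-07) and 1.48-fold with butyrate (-0.57 ± 0.048, adjusted p = 2.93e-06).

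Atf3, a repressor of the same family that stress and Toll-like receptor signals induce, was at 10.20, 10.31 and 10.28 in the untreated arrays, 9.40, 9.23 and 9.23 in the TSA arrays and 9.56, 9.49 and 9.45 in the butyrate arrays. The treated arrays did not overlap with the untreated ones, and butyrate arrays lay between the other groups. Atf3 fell 1.97-fold with TSA (-0.98 ± 0.061, adjusted p = 4.2e-07) and 1.7-fold with butyrate (-0.77 ± 0.061, adjusted p = 1.93e-06). Its promoter holds the C/EBP-ATF core printed above.

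Atf5, a close relative of ATF4 that is also translated under eIF2alpha phosphorylation, was at 7.58, 7.55 and 7.40 in the untreated arrays, 6.32, 6.41 and 6.30 in the TSA arrays and 6.73, 6.36 and 6.48 in the butyrate arrays. Treated arrays were again lower without overlap, while TSA and butyrate arrays overlapped with each other. Atf5 fell 2.25-fold with TSA (-1.17 ± 0.090, adjusted p = 1.87e-06) and 1.98-fold with butyrate (-0.99 ± 0.090, adjusted p = 5.19e-06).

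Cebpb, a basic leucine zipper factor that pairs with ATF4 and drives inflammatory genes in myeloid cells, was at 10.82, 10.89 and 10.71 in the untreated arrays, 9.70, 9.70 and 9.67 in the TSA arrays and 9.92, 10.02 and 10.08 in the butyrate arrays. The 3 groups did not overlap, with TSA lowest. Cebpb fell 2.17-fold with TSA (-1.12 ± 0.060, adjusted p = 1.51e-07) and 1.74-fold with butyrate (-0.80 ± 0.060, adjusted p = 1.19e-06). Its relative Cebpg, a partner of ATF4, changed by 0.02 with TSA (adjusted p = 0.839) and -0.01 with butyrate (adjusted p = 0.945).

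Ddit3, which encodes the pro-apoptotic factor CHOP, was at 9.28, 9.27 and 9.33 in the untreated arrays, 9.22, 9.25 and 9.26 in the TSA arrays and 9.30, 9.31 and 9.32 in the butyrate arrays. The TSA arrays lay just below the untreated arrays, and the butyrate arrays lay within their range. Its change was -0.05 ± 0.043 with TSA (adjusted p = 0.386) and 0.01 ± 0.043 with butyrate (adjusted p = 0.785). The 95% intervals, -0.15 to 0.05 and -0.08 to 0.11, leave room only for small changes on the deposited scale, but on the hybridization spike-in scale the butyrate value was -0.40 and was called lower.

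The feedback genes below these factors went separate ways. Trib3, a pseudokinase that restrains ATF4 and CHOP and carries the C/EBP-ATF core after its start site, fell with TSA (-0.38 ± 0.049, adjusted p = 7.59e-05; not called on the poly-A scale) and changed by -0.04 with butyrate (adjusted p = 0.457). Chac1, which degrades glutathione, rose with butyrate (0.44 ± 0.085, adjusted p = 0.00117) and changed by -0.10 with TSA (adjusted p = 0.369). Sesn2, a leucine sensor that restrains the growth kinase complex mTORC1, rose with butyrate (0.54 ± 0.057, adjusted p = 1.56e-05) and changed by 0.13 with TSA (adjusted p = 0.0838); it was called with TSA without TSA replicate 1, with a change of 0.17, and where only genes above the median level were tested (adjusted p = 0.0348). Ddit4 (REDD1), another restraint on mTORC1, rose with both treatments (0.32 ± 0.078, adjusted p = 0.00622 with TSA and 0.98 ± 0.078, adjusted p = 1.83e-06 with butyrate). Chac1 and Sesn2 were not called higher with butyrate on either spike-in scale, whereas Ddit4 was called on both.

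**Figure D2:**
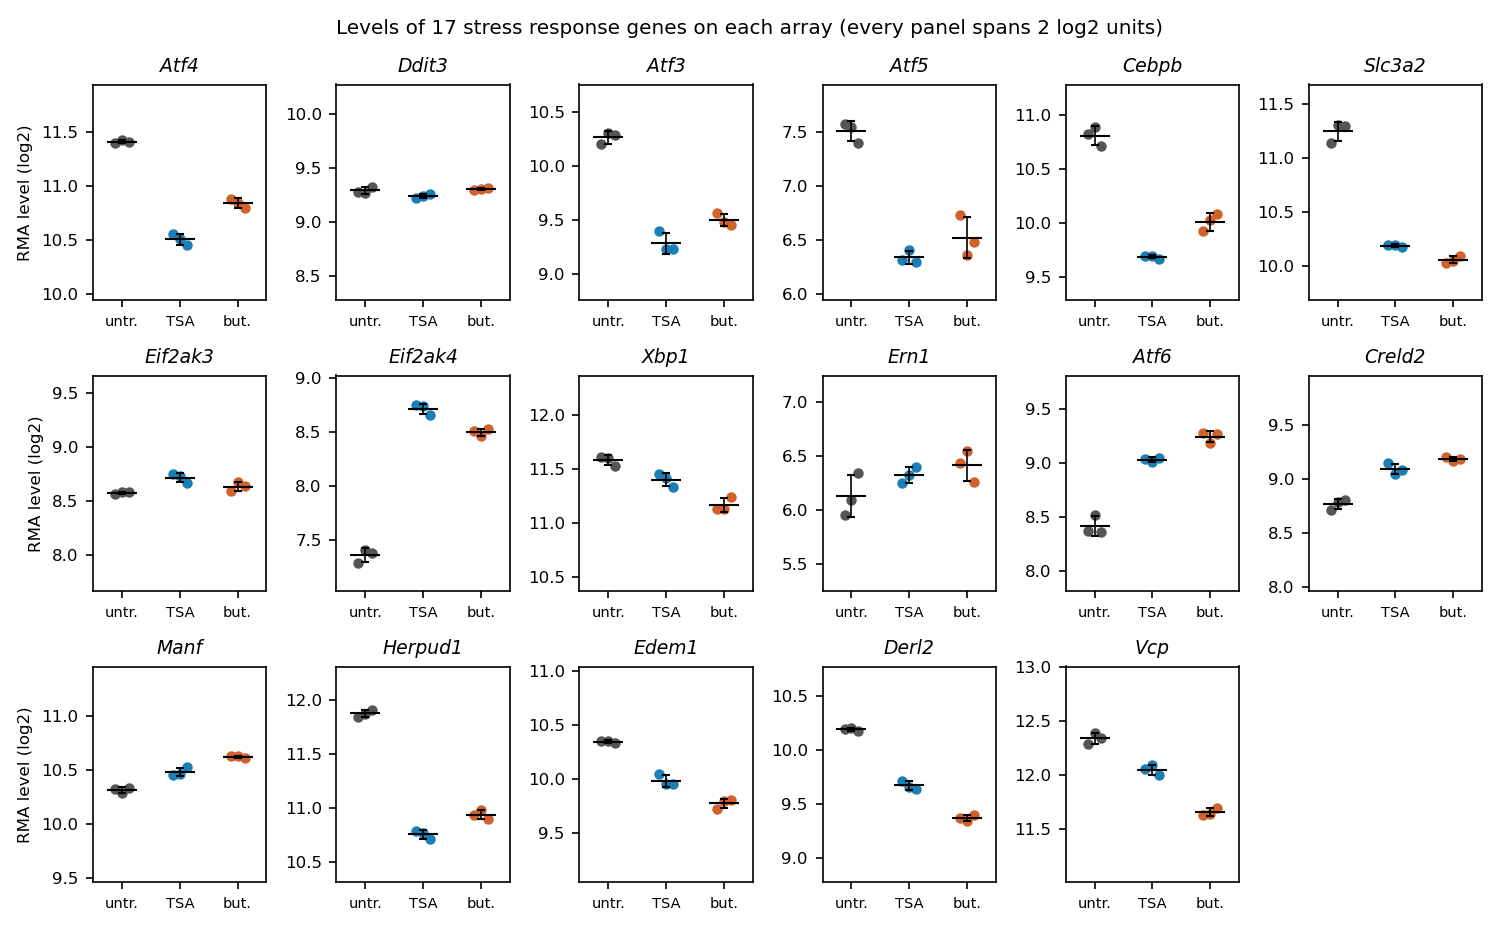
Log2 level on every array of the 17 members described array by array, with untreated, TSA and butyrate arrays as points, the group mean as a line and its SD as a bar. Every panel spans the same width of the log2 scale. The untreated arrays of Atf4, Atf3, Atf5, Cebpb, Slc3a2 and Herpud1 lie above all treated arrays, those of Eif2ak4 and Atf6 lie below all treated arrays, and those of Ddit3 lie close to every treated array.

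Among 8 genes of amino acid synthesis and transport, the 3 enzymes of serine synthesis rose and the transporter chain Slc3a2 fell with both treatments. With TSA 3 were higher (Phgdh, Psat1 and Psph) and 2 lower (Slc3a2 and Mthfd2). With butyrate 4 were higher (Asns, Phgdh, Psat1 and Psph) and 2 lower (Slc3a2 and Shmt2). Their median change was 0.04 with TSA and 0.19 with butyrate.

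Slc3a2, the heavy chain (CD98hc) that carries large amino acid and cystine transporters to the cell surface, was at 11.14, 11.30 and 11.29 in the untreated arrays, 10.20, 10.19 and 10.17 in the TSA arrays and 10.03, 10.05 and 10.09 in the butyrate arrays. All treated arrays lay about 1 log2 unit below the untreated arrays, with butyrate arrays below TSA arrays. It fell 2.08-fold with TSA (-1.06 ± 0.054, adjusted p = 1.09e-07) and 2.28-fold with butyrate (-1.19 ± 0.054, adjusted p = 3.4e-08). Slc7a5, the large amino acid transporter LAT1 that pairs with it, changed by -0.08 with TSA (adjusted p = 0.29) and 0.12 with butyrate (adjusted p = 0.0866); with butyrate it was called without butyrate replicate 2, with a change of 0.16.

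The 3 enzymes that make serine from a glycolytic intermediate rose in the TSA arrays. Phgdh, the first of them, rose 1.87-fold with TSA (0.90 ± 0.049, adjusted p = 1.62e-07) and 1.66-fold with butyrate (0.73 ± 0.049, adjusted p = 5e-07). Psat1, the transaminase that follows, rose 2.08-fold (1.05 ± 0.063, adjusted p = 3.17e-07) and 1.61-fold (0.69 ± 0.063, adjusted p = 5.5e-06). Psph, the final phosphatase, rose by less (0.52 ± 0.053, adjusted p = 1.42e-05 with TSA and 0.27 ± 0.053, adjusted p = 0.00152 with butyrate). Treated and untreated arrays did not overlap in any of these enzymes. With butyrate the rise of Psph was not called on either spike-in scale, and that of Phgdh and Psat1 was called on the hybridization scale and not on the poly-A scale.

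Asns, which makes asparagine and carries the C/EBP-ATF core, rose with butyrate (0.45 ± 0.056, adjusted p = 4.91e-05; not called on either spike-in scale) and changed by 0.14 with TSA (adjusted p = 0.0651). Shmt2 and Mthfd2 are mitochondrial enzymes of one-carbon metabolism. Shmt2 fell with butyrate (-0.23 ± 0.064, adjusted p = 0.0112) and changed by -0.05 with TSA (adjusted p = 0.561). Mthfd2 fell with TSA (-0.18 ± 0.061, adjusted p = 0.0315), a call lost without untreated replicate 1 or 2 or TSA replicate 2 or 3, with changes of -0.20 to -0.14, and changed by -0.10 with butyrate (adjusted p = 0.171).

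The 5 kinases and phosphatase subunits that set eIF2alpha phosphorylation moved in both directions. With each treatment 2 were higher and 2 lower. With TSA the higher ones were Eif2ak3 and Eif2ak4, and with butyrate Eif2ak2 and Eif2ak4; Ppp1r15a and Ppp1r15b were lower with each.

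Eif2ak4, which encodes the amino acid sensor GCN2, was at 7.28, 7.41 and 7.38 in the untreated arrays, 8.74, 8.73 and 8.65 in the TSA arrays and 8.50, 8.46 and 8.52 in the butyrate arrays. Treated arrays stood more than 1 log2 unit above untreated arrays, with TSA highest and no overlap between groups. It rose 2.56-fold with TSA (1.36 ± 0.052, adjusted p = 2.29e-08) and 2.2-fold with butyrate (1.14 ± 0.052, adjusted p = 3.56e-08), and was called higher on both spike-in scales.

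Eif2ak3, which encodes the ER sensor PERK, was at 8.56, 8.58 and 8.58 in the untreated arrays, 8.75, 8.73 and 8.67 in the TSA arrays and 8.59, 8.67 and 8.63 in the butyrate arrays. TSA arrays lay slightly above untreated arrays, and butyrate arrays lay between and touched the TSA range. It rose with TSA (0.14 ± 0.046, adjusted p = 0.0272) and changed by 0.06 with butyrate (adjusted p = 0.301). The TSA call was lost without untreated replicate 1, 2 or 3 or TSA replicate 1 or 2, with changes of 0.12 to 0.14. A dimmer probe set of the gene changed by -0.03 with TSA.

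Eif2ak2 (PKR), which senses double-stranded RNA and is induced by interferon, rose with butyrate by its brightest probe set (0.33 ± 0.072, adjusted p = 0.00251) and changed by -0.10 with TSA (adjusted p = 0.296). Its other probe set was lower with butyrate (-0.64, adjusted p = 0.0285 in limma over all probe sets), so its direction is uncertain. Ppp1r15a (GADD34), the inducible subunit that brings the phosphatase to eIF2alpha, fell 1.71-fold with TSA (-0.77 ± 0.054, adjusted p = 9.64e-07) and 1.66-fold with butyrate (-0.73 ± 0.054, adjusted p = 1.1e-06). Its promoter holds the cAMP response element printed above. Ppp1r15b (CReP), the constitutive counterpart, fell by less (-0.15 ± 0.044, adjusted p = 0.0175 with TSA and -0.33 ± 0.044, adjusted p = 0.000108 with butyrate); with TSA the call was lost without untreated replicate 2 or TSA replicate 2, with changes of -0.14 to -0.13.

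Of the 4 sensors and processing enzymes of the XBP1 and ATF6 arm, Atf6 rose and Xbp1 fell. With TSA Atf6 was higher and Xbp1 lower; with butyrate Atf6 and Ern1 were higher and Xbp1 lower. The median change was 0.04 with TSA and 0.17 with butyrate.

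Atf6, the membrane-bound factor of the ER, was at 8.36, 8.52 and 8.36 in the untreated arrays, 9.03, 9.01 and 9.05 in the TSA arrays and 9.28, 9.18 and 9.27 in the butyrate arrays. The groups did not overlap, with untreated arrays lowest and butyrate arrays highest. It rose 1.53-fold with TSA (0.61 ± 0.057, adjusted p = 6.69e-06) and 1.78-fold with butyrate (0.83 ± 0.057, adjusted p = 5.91e-07), and was called higher on both spike-in scales.

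Xbp1, the factor whose messenger RNA IRE1 splices, was at 11.62, 11.60 and 11.53 in the untreated arrays, 11.45, 11.42 and 11.34 in the TSA arrays and 11.13, 11.14 and 11.24 in the butyrate arrays. The groups did not overlap, with butyrate arrays lowest. It fell 1.13-fold with TSA (-0.18 ± 0.054, adjusted p = 0.0188) and 1.33-fold with butyrate (-0.42 ± 0.054, adjusted p = 8.11e-05). With TSA the call was lost without untreated replicate 1 or 2 or TSA replicate 3, with changes of -0.17 to -0.15, and on both spike-in scales. Xbp1 is also a plasma cell gene, and 6 of the 9 genes of the plasma cell list given above, Xbp1 among them, were lower with TSA. With butyrate 4 of the 9 were lower, Xbp1 again among them, and 2 were higher. The part of plasma cells in this result was not tested.

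Ern1, which encodes IRE1, was at 5.96, 6.09 and 6.34 in the untreated arrays, 6.25, 6.33 and 6.40 in the TSA arrays and 6.43, 6.55 and 6.26 in the butyrate arrays. The untreated arrays spread widely and overlapped with both treated groups. It was higher with butyrate (0.28 ± 0.102, adjusted p = 0.0363), a call lost without untreated replicate 1 or 2 or butyrate replicate 1 or 2, with changes of 0.20 to 0.27, and its change with TSA was 0.19 (adjusted p = 0.155; called without untreated replicate 3, with a change of 0.30). Mbtps1, the first protease that cleaves ATF6, changed by -0.11 with TSA (adjusted p = 0.133) and 0.05 with butyrate (adjusted p = 0.419).

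The 8 folding and translocation genes that XBP1 and ATF6 raise were mostly higher, by small amounts. With TSA 6 were higher and 0 lower (0 also at an unadjusted p under 0.05 in limma), and with butyrate 7 were higher and 1 lower (Sec61b). The median change was 0.19 with TSA and 0.26 with butyrate. On the hybridization scale 2 were higher with TSA (Pdia4 and Creld2) and 0 with butyrate, and on the poly-A scale 0 were higher with either, so the direction of this group with butyrate depends on the scaling: its median was -0.15 and -0.05 on those scales.

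Creld2, an ER-resident disulfide isomerase with the ER stress response element, was at 8.71, 8.78 and 8.81 in the untreated arrays, 9.15, 9.05 and 9.08 in the TSA arrays and 9.20, 9.17 and 9.19 in the butyrate arrays. All treated arrays lay above all untreated arrays. It rose with TSA (0.32 ± 0.048, adjusted p = 0.000233) and with butyrate (0.42 ± 0.048, adjusted p = 3.19e-05).

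Manf, a secreted ER stress-induced survival factor, was at 10.32, 10.28 and 10.34 in the untreated arrays, 10.45, 10.46 and 10.52 in the TSA arrays and 10.63, 10.63 and 10.61 in the butyrate arrays. The groups did not overlap, with butyrate arrays highest. It rose with TSA (0.17 ± 0.044, adjusted p = 0.0103) and with butyrate (0.31 ± 0.044, adjusted p = 0.000161).

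The disulfide isomerases Pdia4 and Pdia6 rose too. Pdia4 rose by 0.28 with TSA (adjusted p = 0.00713) and 0.30 with butyrate (adjusted p = 0.00425). Pdia6, with the ER stress response element, rose by 0.16 (adjusted p = 0.0125) and 0.22 (adjusted p = 0.00148); a dimmer probe set of the gene changed by -0.19 and -0.21, not called. Hyou1, a large chaperone that exchanges nucleotide on the ER chaperone BiP, rose by 0.22 with TSA (adjusted p = 0.0149; lost without untreated replicate 2 or TSA replicate 2, with changes of 0.17 to 0.18) and 0.26 with butyrate (adjusted p = 0.00444). Sdf2l1, a partner of the ER's J-domain chaperones, rose by 0.24 (adjusted p = 0.00352) and 0.24 (adjusted p = 0.00317). Wfs1, an ER membrane protein that restrains ATF6, rose with butyrate (0.27 ± 0.066, adjusted p = 0.00544) and changed by 0.08 with TSA (adjusted p = 0.351). Sec61b, a subunit of the translocation channel, fell with butyrate (-0.14 ± 0.044, adjusted p = 0.0193; lost without butyrate replicate 3, with a change of -0.12) and changed by -0.07 with TSA (adjusted p = 0.237).

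Among the 45 members, Herpud1 of ER degradation had the steepest fall outside the ATF4 arm with each treatment. Of 10 genes 4 were lower with TSA (Herpud1, Edem1, Derl2 and Vcp) and 2 higher (Syvn1 and Os9). With butyrate 5 were lower (the same 4 and Sel1l) and 2 higher (Syvn1 and Os9). The median change was -0.16 with TSA and -0.20 with butyrate, and it was below 0 on both spike-in scales.

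Herpud1, a membrane protein that assembles the ER ubiquitin ligase complex, was at 11.84, 11.87 and 11.91 in the untreated arrays, 10.79, 10.77 and 10.71 in the TSA arrays and 10.94, 10.98 and 10.90 in the butyrate arrays. Every treated array lay about 1 log2 unit below the untreated arrays, with TSA lowest and no overlap between groups. It fell 2.17-fold with TSA (-1.12 ± 0.047, adjusted p = 3.85e-08) and 1.91-fold with butyrate (-0.94 ± 0.047, adjusted p = 6.93e-08).

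Derl2, a derlin of the channel through which misfolded proteins leave the ER, was at 10.19, 10.20 and 10.18 in the untreated arrays, 9.71, 9.66 and 9.64 in the TSA arrays and 9.37, 9.34 and 9.40 in the butyrate arrays. The groups did not overlap, with butyrate lowest. It fell 1.43-fold with TSA (-0.52 ± 0.045, adjusted p = 4.01e-06) and 1.76-fold with butyrate (-0.82 ± 0.045, adjusted p = 1.15e-07). Its relative Derl1 changed by -0.06 and -0.04 (adjusted p = 0.418 and 0.567) by its brightest probe set, while its 3 dimmer probe sets changed by -0.12 to -0.37; of these, 2 were lower with TSA and 3 with butyrate at an adjusted p under 0.05 in limma over all probe sets. By the mean of its probe sets Derl1 was called lower with both treatments (-0.19 and -0.20, adjusted p = 0.00459 and 0.00287), so its count as not called rests on the choice of probe set. Derl3, an XBP1 target of secretory cells with the ER stress response element, changed by -0.10 (adjusted p = 0.514) and 0.15 (adjusted p = 0.292). With butyrate Derl3 was called without untreated replicate 3, with a change of 0.27.

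Edem1, which draws misfolded glycoproteins out of the folding cycle, was at 10.35, 10.35 and 10.33 in the untreated arrays, 10.04, 9.95 and 9.95 in the TSA arrays and 9.72, 9.79 and 9.80 in the butyrate arrays. The groups did not overlap, again with butyrate lowest. It fell 1.29-fold with TSA (-0.36 ± 0.048, adjusted p = 0.000102) and 1.48-fold with butyrate (-0.57 ± 0.048, adjusted p = 2.94e-06). Its relative Edem2 changed by 0.02 (adjusted p = 0.847) and -0.15 (adjusted p = 0.142). With butyrate Edem2 was called lower without untreated replicate 1 or butyrate replicate 3, with changes of -0.23 to -0.22. It was also called lower with butyrate on the hybridization scale (-0.57) and the poly-A scale (-0.46).

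Vcp, the ATPase (p97) that pulls substrates into the cytosol, was at 12.29, 12.39 and 12.34 in the untreated arrays, 12.06, 12.09 and 11.99 in the TSA arrays and 11.62, 11.63 and 11.69 in the butyrate arrays. The groups did not overlap, and butyrate arrays were lowest. It fell 1.22-fold with TSA (-0.29 ± 0.050, adjusted p = 0.000572) and 1.61-fold with butyrate (-0.69 ± 0.050, adjusted p = 8.92e-07). Its promoter holds the XBP1 core printed above.

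The ubiquitin ligase Syvn1 (HRD1), with the ER stress response element, was slightly higher with TSA (0.18 ± 0.064, adjusted p = 0.0412) and butyrate (0.20 ± 0.064, adjusted p = 0.023). With TSA its call was lost without untreated replicate 1 or 3 or TSA replicate 2 or 3 or butyrate replicate 2 or 3, with changes of 0.12 to 0.20, and with butyrate without untreated replicate 1 or butyrate replicate 1, with a change of 0.16. Sel1l, the partner that holds Syvn1 to its substrates, was lower with butyrate (-0.24 ± 0.092, adjusted p = 0.0421) and changed by -0.22 with TSA (adjusted p = 0.0794; called without butyrate replicate 2, with a change of -0.22). The butyrate call was lost without untreated replicate 2 or 3 or TSA replicate 1, 2 or 3 or butyrate replicate 2, with changes of -0.24 to -0.13, and a dimmer probe set was higher (0.21, adjusted p = 0.0333), so its direction is uncertain. Os9, a lectin that hands glycoproteins to this complex, rose by 0.16 with TSA (adjusted p = 0.0358; lost without untreated replicate 1 or 2 or TSA replicate 1 or 3, with changes of 0.13 to 0.17) and 0.22 with butyrate (adjusted p = 0.00586). Neither Syvn1 nor Os9 was called higher on a spike-in scale.

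The choice of probe set and of normalization decided some further calls. With the mean of a gene's probe sets in place of the brightest, the TSA calls of Eif2ak3 (0.03), Ppp1r15b (-0.08) and Hyou1 (0.10) and the butyrate calls of Pdia6 (0.01) and Sel1l (-0.10) were lost, and Asns (0.14) and Eif2ak2 (-0.34) were called with TSA and Mthfd2 (-0.12) with butyrate. With the probe set of largest spread the TSA calls of Ppp1r15b (-0.01), Hyou1 (0.01), Syvn1 (0.18) and Os9 (0.23) and the butyrate calls of Shmt2 (-0.18), Ppp1r15b (-0.23) and Sel1l (-0.37) were lost. Asns (0.15), Eif2ak2 (-0.58) and Derl1 (-0.37) were then called with TSA, and Derl1 (-0.37) with butyrate. With a further quantile normalization the TSA calls of Eif2ak3 (0.12), Xbp1 (-0.14) and Syvn1 (0.16) and the butyrate calls of Ern1 (0.19), Sec61b (-0.06) and Sel1l (-0.18) were lost. Slc7a5 (0.17) and Mbtps1 (0.14) were then called higher with butyrate. With only the groups compared in the fit, Syvn1 with TSA and Ern1 and Sel1l with butyrate were not called, and Sel1l was called lower with TSA (-0.22).

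Set directly against each other, the inhibitors differed in 15 of 23 genes of the ATF4 arm, 4 of 12 of the XBP1 and ATF6 arm and 4 of 10 of ER degradation. Of 45 members 14 were higher and 9 lower with butyrate than with TSA, beside 15.9% and 20% of all genes (35.9% in either direction), and 0 were higher or lower by 2-fold, beside 0.0888% and 0.29% of all genes. Butyrate and TSA arrays did not overlap in 30 of 45 members, beside 50.3% of all genes. Doses and times are unstated, so the comparison is of the deposited arrays and not of matched exposures. Of 10 factors and feedback genes 7 were higher with butyrate (Atf3, Atf4, Trib3, Cebpb, Chac1, Sesn2 and Ddit4) and 0 lower on the deposited scale, with a median difference of 0.33 (0 lower at an unadjusted p under 0.05 in limma too); on the hybridization scale 1 was higher (Ddit4) and 3 lower, and on the poly-A scale 0 in each direction. Without butyrate replicate 1 the 14 members higher with butyrate were 9. With a further quantile normalization, 17 members were higher and 6 lower in the whole comparison, beside 16.1% and 17% of all genes. On the hybridization scale 1 member was higher and 34 lower, beside 0.75% and 81.1% of all genes. On the poly-A scale 0 were higher and 11 lower, beside 0.274% and 24.4% of all genes. Shmt2 and Edem2, not called as deposited, were lower with butyrate than with TSA on both of these scales.

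Among the factors, Atf4 was 0.34 higher with butyrate (adjusted p = 0.000528) and Cebpb 0.32 higher (adjusted p = 0.0025). Atf3 was 0.21 higher (adjusted p = 0.022; lost without TSA replicate 2 or 3 or butyrate replicate 1, with a change of 0.18). Atf5 differed by 0.18 (adjusted p = 0.143; called without butyrate replicate 2, with a change of 0.26) and Ddit3 by 0.07 (adjusted p = 0.263, 95% interval -0.03 to 0.16). Among the feedback genes, Ddit4 was 0.67 higher (adjusted p = 0.000166), Chac1 0.55 (adjusted p = 0.000865), Sesn2 0.41 (adjusted p = 0.000458) and Trib3 0.34 (adjusted p = 0.000562). Cebpg differed by -0.02 (adjusted p = 0.785).

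On the deposited scale serine synthesis and GCN2 ran the other way. With equal hybridization spike-ins Atf3 (-0.19), Atf4 (-0.064), Trib3 (-0.064) and Cebpb (-0.08) lay below 0 too. Chac1 (0.14) and Sesn2 (0.01) stayed above 0 there, and Ddit4 was still called higher. Psat1 was lower with butyrate than with TSA (-0.37, adjusted p = 0.00158), as were Psph (-0.26, adjusted p = 0.00439), Phgdh (-0.17, adjusted p = 0.0211; lost without TSA replicate 1 or butyrate replicate 1, with changes of -0.16 to -0.15) and Eif2ak4 (-0.21, adjusted p = 0.00992). The Phgdh call was also lost with a further quantile normalization (-0.11), with the mean of its probe sets (-0.05) and with the probe set of largest spread (-0.10), and its 3 dimmer probe sets differed by -0.10 to 0.08. Asns was 0.31 higher (adjusted p = 0.00182) and Slc7a5 0.20 higher (adjusted p = 0.0191; lost without TSA replicate 1 or butyrate replicate 1, with changes of 0.16 to 0.18). Slc3a2 differed by -0.13 (adjusted p = 0.0885; called without untreated replicate 1, with a change of -0.13), Shmt2 by -0.17 (adjusted p = 0.0553; called without untreated replicate 1 or 3 or TSA replicate 2, with changes of -0.22 to -0.17) and Mthfd2 by 0.08 (adjusted p = 0.344). Eif2ak2 was 0.44 higher by its brightest probe set (adjusted p = 0.00127). Ppp1r15b was lower (-0.18, adjusted p = 0.0122), Ppp1r15a differed by 0.04 (adjusted p = 0.615) and Eif2ak3 by -0.08 (adjusted p = 0.186).

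In the XBP1 and ATF6 arm 3 of 12 genes were higher and 1 lower with butyrate than with TSA. Atf6 was 0.21 higher (adjusted p = 0.015; lost without TSA replicate 2 or butyrate replicate 1, with a change of 0.20), Mbtps1 0.16 (adjusted p = 0.0405; lost without untreated replicate 3 or TSA replicate 1, 2 or 3 or butyrate replicate 1, 2 or 3, with changes of 0.12 to 0.19) and Manf 0.14 (adjusted p = 0.0303; lost without TSA replicate 1 or 2 or butyrate replicate 1, 2 or 3, with changes of 0.13 to 0.15). Xbp1 was lower (-0.23, adjusted p = 0.00801). Wfs1 differed by 0.18 (adjusted p = 0.0512; called without TSA replicate 1 or butyrate replicate 3, with changes of 0.22 to 0.24), and the other 7 genes by -0.07 to 0.09, not called.

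In ER degradation Vcp (-0.39, adjusted p = 0.000252), Derl2 (-0.30, adjusted p = 0.000673) and Edem1 (-0.21, adjusted p = 0.00814) were lower with butyrate than with TSA. For Edem1 the call was lost with the mean of its probe sets (-0.05, adjusted p = 0.33) and with a further quantile normalization (-0.13, adjusted p = 0.0516), and its dimmer probe set differed by 0.10 the other way (adjusted p = 0.133). Herpud1 was higher (0.18, adjusted p = 0.0132; lost without TSA replicate 3, with a change of 0.16), its fall with TSA having been the larger. The other 6 genes differed by -0.17 to 0.25 and were not called, with Derl3 called without untreated replicate 3 or butyrate replicate 3, with changes of 0.25 to 0.34. Other calls between the inhibitors that were lost with the mean of a gene's probe sets were those of Eif2ak2 (0.19), Ppp1r15b (-0.20) and Mbtps1 (0.01). Those lost with the probe set of largest spread were Cebpb (0.21), Ppp1r15b (-0.22), Herpud1 (0.16) and Vcp (-0.26), and a further quantile normalization also lost Ppp1r15b (-0.10). With that normalization Ddit3 (0.13), Creld2 (0.15) and Wfs1 (0.26) were called higher with butyrate than with TSA.

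**Figure D3:**
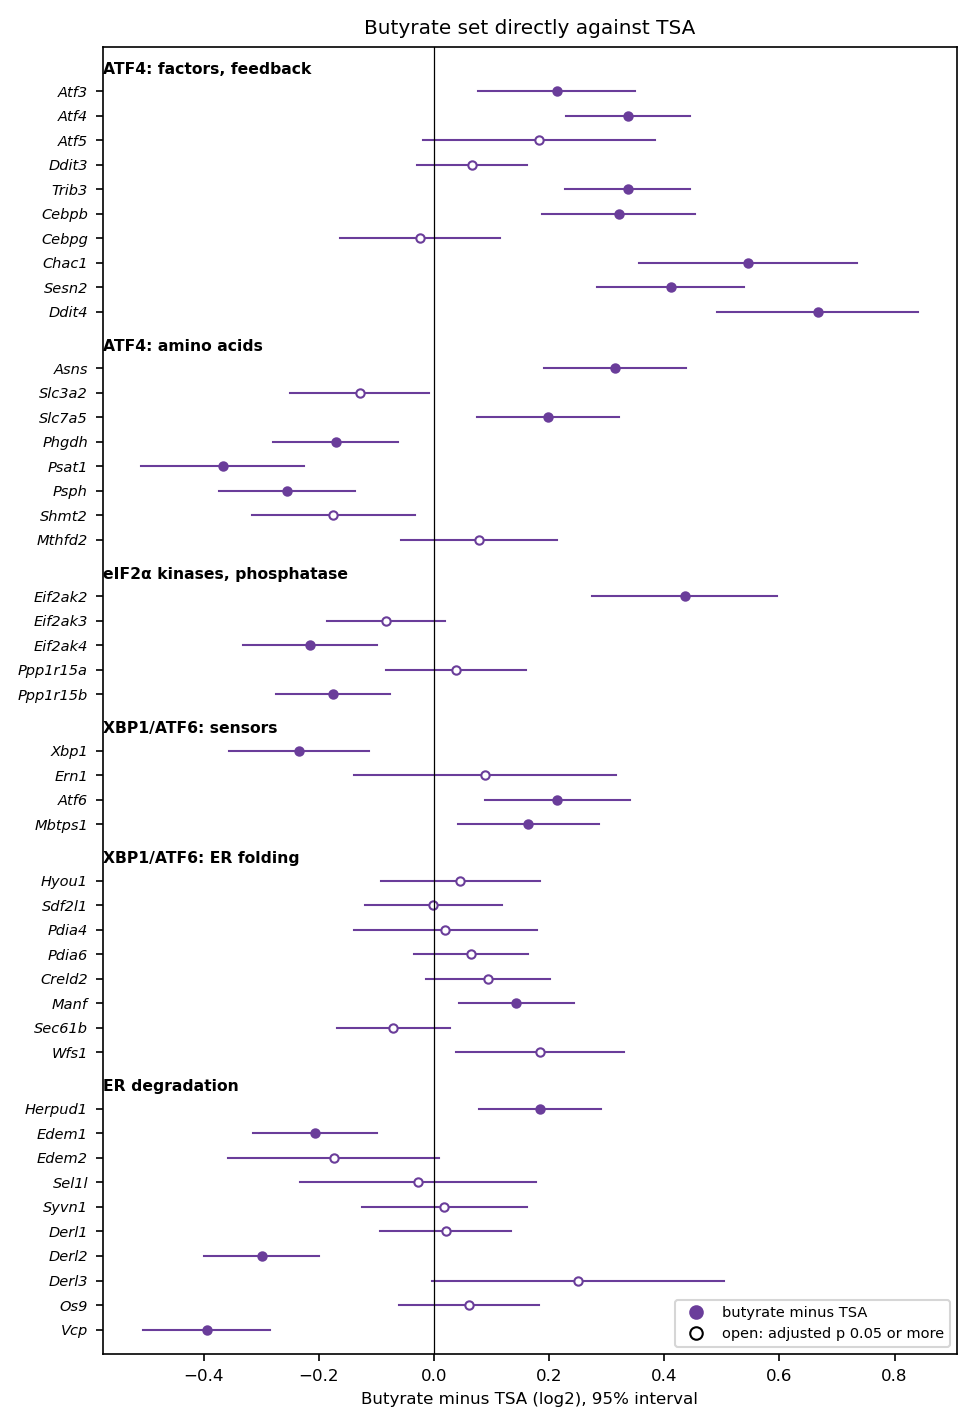
Log2 difference between butyrate and TSA arrays for each of the 45 members, by arm, with the 95% interval of limma's fit and open circles where the test was not passed. Ddit4 at 0.67 and Chac1 at 0.55 stand highest, and Vcp at -0.39 and Psat1 at -0.37 lowest.

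Other genes of these pathways were counted from 9 wider lists of textbook components. Of the lists, 40.9% to 75% of genes were called with TSA and 50% to 82.4% with butyrate, beside 47.3% and 58.4% of all genes tested. By direction, 26.3% of all genes were higher and 21% lower with TSA, and 33.6% and 24.8% with butyrate. The counts of each list below are to be read beside these shares. The further ER chaperones and oxidoreductases lay below all genes with both treatments (40.9% and 50%), and the aminoacyl-tRNA synthetases (55.6%) and amino acid transporters (50%) lay below with butyrate. Aminoacyl-tRNA synthetases, which load tRNAs with amino acids and include many ATF4 targets, were mostly higher with TSA: 11 of 18 were higher and 1 lower (Aars), with 7 and 3 for butyrate. On the hybridization scale these counts were 10 and 1 with TSA, beside 21.7% and 19% of all genes. With butyrate they were 0 and 12 there, beside 7.52% and 67.9% of all genes, so the 12 lower lie near the share of all genes. Rars, the arginine enzyme, rose by 0.93 with TSA (adjusted p = 1.6e-07) and 0.49 with butyrate (adjusted p = 1.35e-05). Farsb, a phenylalanine enzyme subunit, rose by 0.93 with TSA (adjusted p = 4.11e-06) and changed by 0.03 with butyrate (adjusted p = 0.731). Qars, the glutamine enzyme, rose by 0.76 (adjusted p = 2.85e-06) and 0.61 (adjusted p = 1.29e-05). Aars, the alanine enzyme, went the other way and fell with both (-0.68, adjusted p = 4.63e-06 and -0.67, adjusted p = 4.48e-06); it was named after its values were seen.

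Of 8 other amino acid and cystine transporters 3 were lower and 1 higher with each treatment. Slc7a11, the cystine transporter chain that Slc3a2 carries to the surface, averaged 10.08 ± 0.0784 in untreated, 7.43 ± 0.142 in TSA and 5.93 ± 0.287 in butyrate arrays (SD, n = 3). The groups were far apart, and its fall was 6.27-fold with TSA (-2.65 ± 0.128, adjusted p = 7.91e-08) and 17.8-fold with butyrate (-4.15 ± 0.128, adjusted p = 3.83e-09). Slc38a2, a neutral amino acid transporter induced by ATF4, fell too (-0.96 and -0.87, adjusted p = 1.41e-07 and 1.82e-07), as did the glycine transporter Slc6a9 (-0.56 and -0.71, adjusted p = 0.000285 and 4.51e-05). Slc1a5, a glutamine transporter named after its values were seen, was the higher one (0.60 and 0.53, adjusted p = 1.65e-05 and 3.66e-05).

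Of 9 one-carbon, serine and glutamine enzymes 4 were higher and 1 lower with TSA, and 5 higher and 2 lower with butyrate. Gpt2, the mitochondrial alanine transaminase, rose by 1.68 with TSA (adjusted p = 5.83e-07) and 1.47 with butyrate (adjusted p = 1.17e-06). Aldh18a1, of proline synthesis, rose by 0.86 and 0.76 (adjusted p = 8.34e-07 and 1.59e-06). Got1, the cytosolic aspartate transaminase, fell (-0.78 and -0.69, adjusted p = 4.2e-07 and 8.12e-07). Of 8 genes for eIF2 and eIF2B subunits and the heme-regulated kinase (Eif2ak1), 4 were higher and 1 lower with TSA, and 3 and 2 with butyrate. The eIF2B subunits Eif2b2 (0.66 and 0.48, adjusted p = 1.58e-06 and 1.32e-05) and Eif2b4 (0.56 and 0.56, adjusted p = 1.08e-05 and 8.41e-06) rose, and Eif2ak1 fell (-0.28 and -0.40, adjusted p = 0.00657 and 0.000653).

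Of 17 other ATF4 and CHOP targets 4 were higher and 7 lower with TSA, and 6 higher and 8 lower with butyrate. Txnip, the thioredoxin-binding protein, rose 2.99-fold with TSA (1.58 ± 0.060, adjusted p = 2.28e-08) and 4.34-fold with butyrate (2.12 ± 0.060, adjusted p = 2.7e-09). Jdp2, a repressor of the AP-1 family, rose by 1.18 and 1.36 (adjusted p = 9.51e-08 and 2.47e-08). Gadd45b, a stress gene, fell (-0.88 and -0.89, adjusted p = 6.07e-07 and 4.24e-07).

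Of 22 further ER chaperones and oxidoreductases 7 were higher and 2 lower with TSA, and 8 higher and 3 lower with butyrate (6 and 1, and 1 and 16, on the hybridization scale). Fkbp7, an ER prolyl isomerase, rose by 1.04 and 0.61 (adjusted p = 1.01e-06 and 4.25e-05). Uggt1, which tags unfolded glycoproteins for another round of folding, rose by 0.42 and 0.78 (adjusted p = 0.00369 and 4.62e-05). Dnajb9, an XBP1-dependent co-chaperone that restrains IRE1, fell with butyrate (-0.68, adjusted p = 3.27e-05) and changed by -0.14 with TSA (adjusted p = 0.193). Hspa5, which encodes BiP and is the best known readout of the pathway, was named after its values were seen: it fell with TSA (-0.18, adjusted p = 0.00603) and changed by 0.08 with butyrate (adjusted p = 0.146). Of 20 genes of translocation and signal peptide processing 13 were higher and 2 lower with TSA, and 10 and 4 with butyrate (9 and 1, and 0 and 14, on the hybridization scale). On the hybridization scale 67.9% of all genes were lower with butyrate, so the 16 and 14 lower genes of these lists lie near that share. The translocon-associated subunits Ssr3 (0.61 and 0.61, adjusted p = 7.21e-06 and 5.77e-06) and Ssr2 (0.50 and 0.52, adjusted p = 1.24e-05 and 6.55e-06) rose, as did the signal peptidase subunit Sec11c (0.52 and 0.28, adjusted p = 3.19e-05 and 0.00213).

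Of 23 other ER degradation components 8 were higher and 7 lower with TSA, and 6 higher and 11 lower with butyrate. Ubxn6, a cofactor of the Vcp ATPase, fell 1.92-fold with TSA (-0.94 ± 0.071, adjusted p = 1.58e-06) and 2.11-fold with butyrate (-1.07 ± 0.071, adjusted p = 4.81e-07). Ubxn4, another cofactor of Vcp at the ER, fell (-0.26 and -0.67, adjusted p = 0.000999 and 7.8e-07), as did Erlec1, a lectin related to Os9 (-0.59 and -1.01, adjusted p = 0.000173 and 2.81e-06). Of 15 other ER stress transducers and IRE1 partners 3 were higher and 6 lower with TSA, and 7 higher and 3 lower with butyrate. Bak1, a pro-apoptotic protein that binds IRE1, fell 2.15-fold with TSA (-1.11 ± 0.050, adjusted p = 5.74e-08) and 2.47-fold with butyrate (-1.31 ± 0.050, adjusted p = 1.18e-08). Traf2, the adaptor through which IRE1 reaches kinase signalling, fell (-0.87 and -0.91, adjusted p = 5.24e-07 and 2.89e-07). Creb3l2, an ATF6-like membrane-bound factor, rose (0.67 and 0.57, adjusted p = 2.56e-05 and 7.05e-05).

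**Figure D4:**
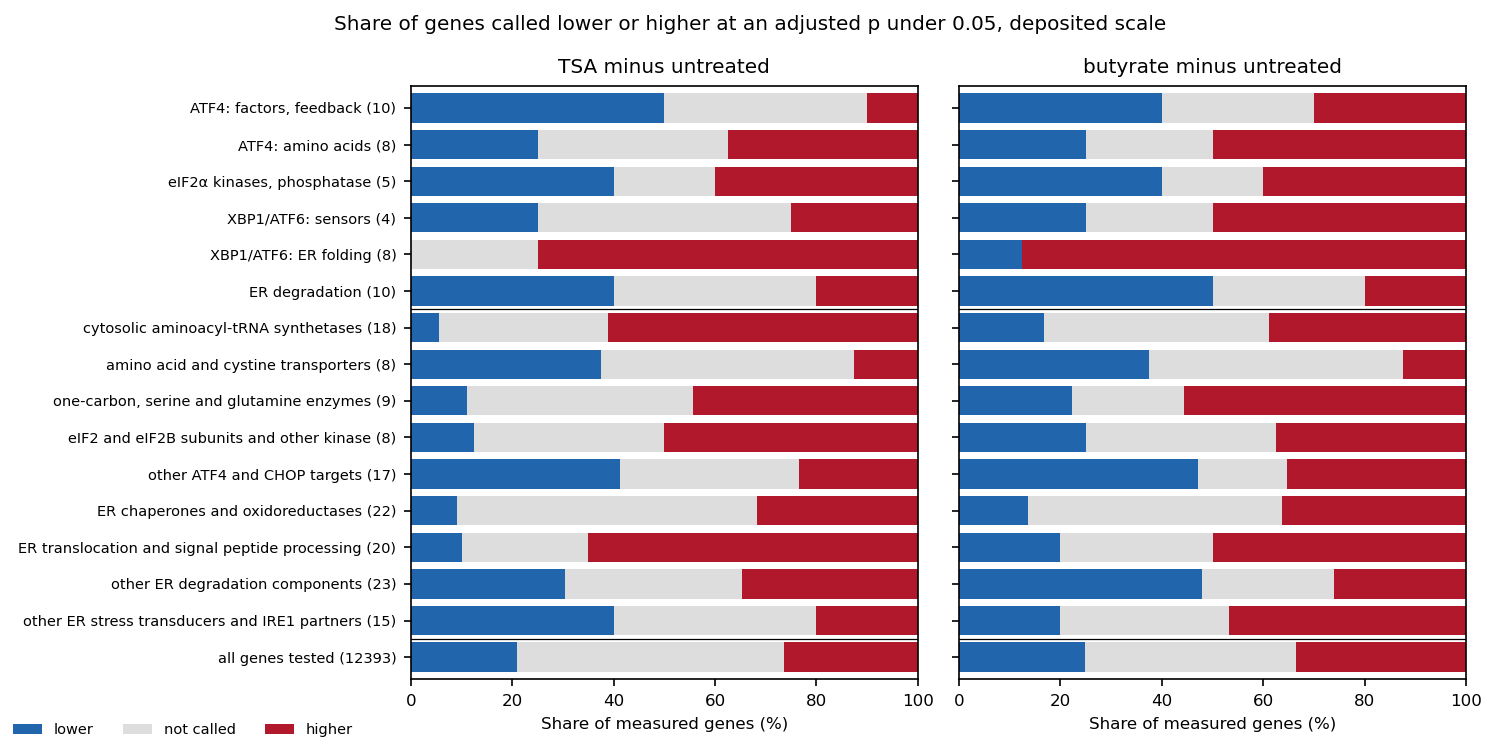
Percent of the measured genes of each arm and wider list called lower (blue, from the left), not called (grey) and called higher (red, up to the right edge) with TSA and with butyrate on the deposited scale, with the same over all 12393 genes tested in the bottom bar. Folding and translocation targets show 6 of 8 genes higher with TSA, and transcription factors and feedback genes show 5 of 10 lower.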

How the data were processed

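RNA of 9 samples was measured on Affymetrix mouse arrays. The deposited values are log2 intensities per probe set that the authors, per the submitters' processing notes, obtained by RMA, which corrects background, equalises the arrays' distributions and summarises probes. Which software and probe grouping they used was not given in the sources used here. RMA takes the arrays to have alike distributions of signal, so a shift shared by most genes would not show.

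Of 22690 probe sets, 64 controls were left out, 20380 had a single symbol, 691 several and 1555 none; names come from GEO's platform annotation, and 20351 probe sets matched a RefSeq gene. The probe set with the highest mean was kept for each of 12393 genes. All 9 arrays were fitted with limma 3.58.1 (R 4.3.3; 6 residual and 3.9 prior degrees of freedom), with Benjamini-Hochberg adjustment over all genes. The fit was tested on simulated data.

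Members and lists were chosen with earlier results of these data known. Levels on each array are given for Atf4, Ddit3, Atf3, Xbp1, Ern1, Atf6, Eif2ak3 and Vcp, and for up to 4 members per arm with the largest called changes without overlap; of each wider list, up to 3 called genes with the largest change. Alternatives were other scalings, probe set choices, filters, fits, a 2-fold minimum, a replicate block and leaving out each array.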

Additional observations from a re-analysis of the deposited data

How the results depend on the processing

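The number of arrays, 3 a group, limits the precision, and dim genes near the array's floor have understated changes. Counts of members called higher with TSA, 15 as reported, were 8 with equal hybridization spike-ins, 5 with equal poly-A spike-ins and 2 with a 2-fold minimum. Those called lower, 14, were 8 with equal poly-A spike-ins and 4 with a 2-fold minimum. With butyrate the 20 higher were 5, 3 and 1, and the 15 lower were 26 with equal hybridization spike-ins and 1 with a 2-fold minimum. For butyrate against TSA the 14 higher were 1, 0 and 0 under those settings and 9 without butyrate replicate 1, and the 9 lower were 34 with equal hybridization spike-ins and 0 with a 2-fold minimum. The other counts, those on a further quantile normalization and with only the groups compared among them, stayed within 1.5 times those reported. Leaving out each array in turn gave 12 to 15 higher and 11 to 15 lower with TSA, 18 to 21 and 14 to 16 with butyrate, and 9 to 14 and 8 to 11 for butyrate against TSA.

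With the replicate number as a block the counts were 12 higher and 14 lower with TSA, 20 and 15 with butyrate, and 13 and 9 for butyrate against TSA. Same-numbered arrays of different groups had deviations that correlated at -0.12 to 0.21 in 9 pairs, other pairs at -0.25 to 0.16, and 3 of 9 arrays correlated best with their own number, so the numbers were not taken to pair the arrays. Under the replicate block Eif2ak3, Syvn1 and Os9 were not called with TSA, Mbtps1 and Manf were not called for butyrate against TSA, and Wfs1 was.

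Some members, called as reported or under the alternative, had the opposite sign there; the alternative's value stands beside each name. For TSA against untreated with the probe set of largest spread, it was opposite in Eif2ak3 (-0.026) and Pdia6 (-0.19). For TSA against untreated with the mean of a gene's probe sets, it was opposite in Pdia6 (-0.014). For butyrate against untreated with equal hybridization spike-ins, it was opposite in Ddit3 (-0.40), Slc7a5 (-0.30), Psph (-0.15), Eif2ak2 (-0.081), Eif2ak3 (-0.36), Ern1 (-0.13), Mbtps1 (-0.36), Hyou1 (-0.15), Sdf2l1 (-0.18), Pdia4 (-0.11), Pdia6 (-0.19), Manf (-0.11), Wfs1 (-0.15), Syvn1 (-0.22), Derl3 (-0.27) and Os9 (-0.20). For butyrate against untreated with equal poly-A spike-ins, it was opposite in Psph (-0.046), Ern1 (-0.0297), Hyou1 (-0.051), Sdf2l1 (-0.074), Pdia4 (-0.0089), Pdia6 (-0.087), Manf (-0.0031), Wfs1 (-0.045), Syvn1 (-0.11) and Os9 (-0.093). For butyrate against untreated with the mean of a gene's probe sets, it was opposite in Eif2ak2 (-0.15). For butyrate against untreated with the probe set of largest spread, it was opposite in Eif2ak2 (-0.64) and Pdia6 (-0.21). For butyrate against TSA with equal hybridization spike-ins, it was opposite in Atf3 (-0.19), Atf4 (-0.064), Atf5 (-0.22), Ddit3 (-0.34), Trib3 (-0.064), Cebpb (-0.0802), Asns (-0.086), Slc7a5 (-0.20), Mthfd2 (-0.32), Ppp1r15a (-0.36), Ern1 (-0.31), Atf6 (-0.19), Mbtps1 (-0.24), Hyou1 (-0.35), Pdia4 (-0.38), Pdia6 (-0.34), Creld2 (-0.31), Manf (-0.26), Wfs1 (-0.22), Herpud1 (-0.22), Syvn1 (-0.38), Derl1 (-0.38) and Os9 (-0.34). For butyrate against TSA with equal poly-A spike-ins, it was opposite in Atf3 (-0.095), Slc7a5 (-0.11), Atf6 (-0.093), Mbtps1 (-0.14), Manf (-0.16) and Herpud1 (-0.12). For butyrate against TSA with the probe set of largest spread, it was opposite in Eif2ak2 (-0.059) and Mbtps1 (-0.10). No called member turned sign when an array was left out or under the replicate block. Moving an array to the common spike-in mean shifts all its genes alike; which scale is right was not tested.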
